A study of Felis catus with 23 samples.

Results

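The microRNA (miRNA) content of serum from healthy cats was described from 12 arrays, 1 per cat, which were all arrays labelled healthy among the 23 of the study. The other 11 arrays came from cats with hypertrophic cardiomyopathy and were not analysed here. For these cats the labels used here give the disease status and the tissue, serum, and no treatment, age or breed. Blood was allowed to clot, spun, and the serum was frozen before total RNA was isolated and labelled with Cy3. Replicates are numbered as in the labels, from 14 to 23, 25 and 26. The healthy arrays lay on 3 slides, 4 on each, and the cardiomyopathy arrays lay on the same slides. Replicates 22, 23, 25 and 26 were on slide 1, replicates 18 to 21 on slide 2 and replicates 14 to 17 on slide 3.

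The array was a human design, so every name below is the human name of a probe, and no probe was matched to the cat genome. There were 62944 spots per array. Human miRNA names numbered 1887, with 4530 probes on 56610 of the spots. A name was represented by its brightest probe and counted as detected when the scanner software called at least 50% of that probe's spots well above background. Probe brightness depends on how well a probe binds as well as on the amount of RNA, so ranks and shares below are of signal and not of molecules. The share of a name is its signal in percent of the summed signal of all human names detected on that array. Its level is the log2 of its signal after scaling each array to 1 common 75th percentile, with a floor at 2.28.

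miRNAs are short RNAs that guide the silencing complex to messenger RNAs. Serum holds no intact cells, but miRNAs released from blood cells, vessel walls and organs persist there inside vesicles or bound to proteins. Red cells are rich in miR-451a, miR-144 and miR-486, platelets and myeloid cells in miR-223, liver in miR-122, and heart and skeletal muscle in miR-1 and miR-133a. A difference in how many source cells released RNA and a difference in RNA per cell cannot be told apart in serum.

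A small core of names was found in every healthy serum. Of the 1887 human names, 262 were detected on all 12 arrays (13.9%), and 421 on at least 6 arrays (22.3%). A further 201 names were detected on 1 to 5 arrays, and 1265 on no array (67%). The 262 names held between 97.3% and 99.3% of the signal of detected names on each array, with a median of 98.3%. The 159 names detected on 6 to 11 arrays and the 201 on 1 to 5 carried the small rest.

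The number of names detected per array ran from 302 on replicate 25 to 557 on replicate 15, with a mean of 416 ± 82.8 (SD, n = 12). Replicates 20, 22 and 25 detected the fewest names, at 312, 308 and 302. These were also the dimmest arrays, with a 75th percentile intensity over the scaling probes of 87.4, 101 and 97.1, against 644 on replicate 15. Over the 12 arrays the number of names rose with the log2 of that percentile (Pearson r = 0.95, two-sided permutation p = 1e-05, the smallest that 100000 resamples can give, and 6e-05 after Benjamini-Hochberg adjustment over 6 relations). Spearman's rho was 0.92 (permutation p = 8e-05, adjusted 0.00048). Without replicates 15 and 20, the farthest from the median, r was 0.92 (permutation p adjusted 0.00114), and with each slide centred it was 0.97. Both measures come from the same spot signals, and on a brighter array more spots pass the detection call. This relation is thus largely built into the call. A slide held only 4 healthy arrays, too few for a value within each slide. On each slide the dimmest healthy array was the one at position 3 of its row. These were replicates 25, 20 and 16 on slides 1, 2 and 3, with 75th percentiles of 97.1, 87.4 and 158. Position on the slide and serum cannot be told apart.

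The other 5 relations with array brightness gave no adjusted p under 0.05 over 12 arrays. They concerned the share of the 10 brightest names (r = -0.44, permutation p adjusted 0.308), the red cell share (r = -0.16), the share of GC-rich and fragment names (r = -0.01), the level of miR-451a minus that of miR-23a-3p (r = -0.46), and the median rank correlation with the other arrays (r = 0.19). Spearman's rho for these was -0.39, -0.13, -0.10, -0.41 and 0.26. For the share of the 10 brightest names, r without replicates 15 and 20 was -0.73 (permutation p adjusted 0.0616), and rho was -0.79 (permutation p adjusted 0.0256).

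**Figure D1:**
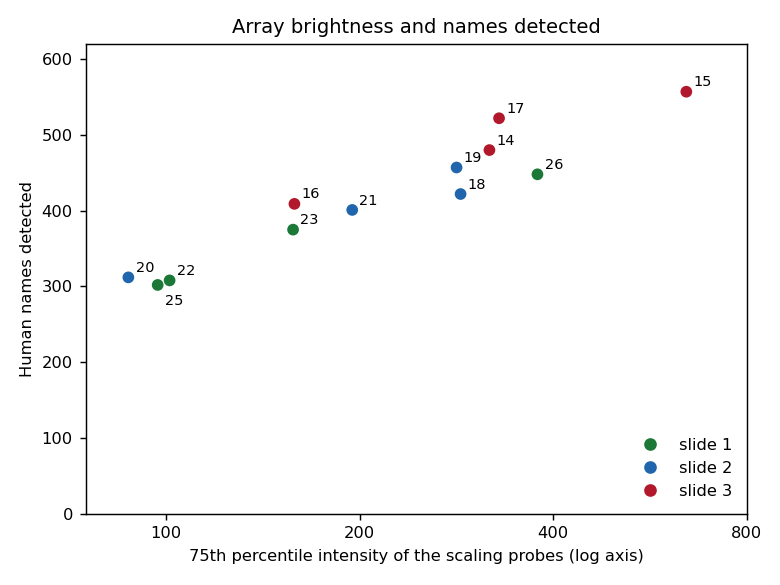
Human names detected on each healthy array (vertical axis) against the 75th percentile intensity of the scaling probes (horizontal log axis), with 1 point per array, labelled by replicate and coloured by slide. Replicates 20, 22 and 25 lie at the lower left with 312, 308 and 302 names, and replicate 15 at the upper right with 557.

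A few names carried most of the signal. The 10 brightest names together held 53.3% ± 4.91 (SD, n = 12), with a lowest share of 47.1% and a highest of 61.3%, and the 20 brightest held 68.1% ± 2.52. Between 6 and 9 names sufficed for 50% of an array's signal and between 64 and 87 for 90%. Of the 20 brightest names, 15 carried a number of 1000 or more, which marks names registered later in the miRNA catalogue. Names numbered 3000 and up held 70.9% ± 3.16 of the signal and names under 1000 held 22.9% ± 3.72, although the array had 884 names of the first kind and 825 of the second.

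The brightest name was miR-5100, with a lowest share of 7.29% on replicate 15, a median of 13.3% and a highest of 17.1%. It ranked first on 11 of 12 arrays, and on replicate 15 miR-4466 took its place. Its level was 14.04 with an SD of 0.34, so it was both the brightest and among the steadier of the bright names. The share of miR-4466 ran from 3.08% to 11.3% with a median of 6.79%, lowest on replicate 14 and highest on replicate 15. The share of miR-3960, known in mammals from a gene cluster with miR-2861 active in bone-forming cells, ran from 3.54% to 9.66% with a median of 5.75%. That of miR-4281 ran from 3.0% to 6.80% with a median of 4.70%. All of these names were bright in every serum.

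Other bright names varied more. The share of miR-4443 ran from 2.31% to 10.1% with a median of 4.16%. The share of miR-4454, a name whose sequence resembles a transfer RNA fragment, ran from 1.65% on replicate 15 to 9.16% on replicate 16 with a median of 4.09%. The share of miR-486-5p, abundant in red cells, ran from 0.794% to 5.77% with a median of 1.83%. It was the only member of the red cell list among the 20 brightest names. The share of miR-4505 was 5.21% on replicate 14 and between 1.30% and 2.11% on the other 11 arrays.

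The order among the bright names was loose. Of the 19 pairs of neighbours in the order of mean share, 18 had a mean difference within the SD of that difference over arrays. No pair kept its order on all 12 arrays, 3 kept it on at least 10, and 10 on 6 or fewer. The difference between miR-5100 and miR-4466 was the exception at 6.60 percentage points with an SD of 4.17, and it held on 11 arrays. Across the 421 names, the Spearman correlation of levels between arrays ran from 0.764 for replicates 15 and 20 to 0.957 for replicates 14 and 18, with a median of 0.883 over 66 pairs. Array pairs share probes and their binding strength, which is part of that likeness.

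**Figure D2:**
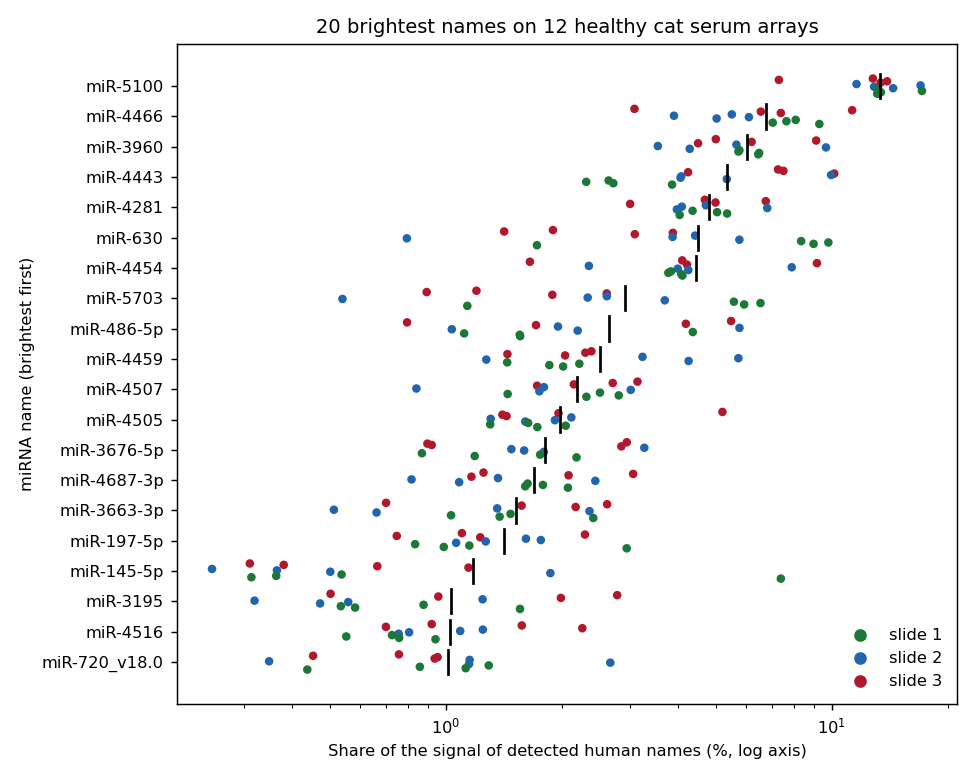
Share of the signal of detected human names (horizontal log axis, percent) for the 20 names with the highest mean share, with 1 point per healthy array coloured by slide and a bar at the mean. miR-5100 stands to the right of the others at 13.3%, and miR-145-5p has 1 array at 7.38% far from the rest.

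Rank also depended on which probe stood for a name. Of the 262 names, 207 had another probe detected on all arrays, and the probes differed in level by a median of 0.29, with 27 names over 1. With its next brightest probe miR-5100 ranked 14, miR-4443 14, miR-4454 17, miR-4505 99 and miR-720_v18.0 55, while miR-4466 ranked 6. For most names the probes gave like differences between arrays. The SD over arrays of the difference between a name's 2 probes had a median of 0.0955 and was under 0.2 for 157 of the 207 names. It was over 0.5 for 8 names, with the largest value, 1.03, for miR-4690-5p. Bright names were among the 8, with 0.55 for miR-4466, 0.54 for miR-4454 and 0.69 for miR-720_v18.0, and miR-5100 had 0.36. With its next brightest probe miR-4466 was lowest on replicate 19, at 10.49, and again highest on replicate 15, at 13.59. miR-638 had an SD of the difference of 0.88. Its level on replicate 15 was 9.35 with the brightest probe and 7.66 with the next, so its high value there rests on 1 probe.

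Spread between arrays differed widely among names. Each cat had 1 array, so differences between cats and differences between preparations or arrays cannot be told apart. Over the 262 names the SD of the level ran from 0.18 to 2.40, with quartiles of 0.46, 0.62 and 0.78, and 23 names were above 1. With the names ordered by level, the median SD was 0.68 in the dimmest 88 names, 0.59 in the next 87 and 0.60 in the brightest 87, so the spread was not limited to dim names. The 10 steadiest names were miR-4497, miR-4787-5p, miR-1249, miR-1914-3p, miR-652-5p, miR-1207-5p, miR-150-3p, miR-3162-5p, miR-188-5p and miR-30d-5p, with SDs between 0.18 and 0.29. Among them miR-1207-5p was bright at 10.17, and miR-30d-5p, of a family expressed in most tissues, was at 8.04.

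The most variable name was miR-451a, the miRNA most abundant in mature red cells. Its level was lowest on replicate 15 at 3.66, had a median of 5.22, and was highest on replicate 16 at 12.15. Replicates 22 and 17 followed at 9.34 and 7.65, and the other 9 arrays lay between 3.66 and 6.21. Its mean share was 0.300%, and 0.0843% without replicate 16, while its SD fell from 2.40 to 1.59.

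The next most variable were miR-940, miR-145-5p, miR-375, miR-1299 and miR-557. miR-940 had a lowest level of 5.06, a median of 6.55 and a highest of 10.36 on replicate 20. miR-145-5p, characteristic of vascular smooth muscle, had a lowest level of 8.14, a median of 9.15 and a highest of 13.26 on replicate 26. There it held 7.38% of the signal, against 0.248% to 1.87% on the other arrays. Its mean share was 1.17% with replicate 26 and 0.609% without it.

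miR-375, known from pancreatic islets, was highest on replicate 20 at 6.38, followed by 5.47 on replicate 23, and at the floor on 2 arrays. Its SD was 1.38, and 1.25 without replicate 20, so it was not led by 1 array. miR-1299 was highest on replicate 21 at 7.25, and miR-557 on replicate 15 at 8.37. The mean shares of miR-940, miR-375, miR-1299 and miR-557 were 0.199%, 0.0209%, 0.0295% and 0.0478%. Without the array where each was highest they were 0.113%, 0.0162%, 0.0191% and 0.0317%. No array was the high one for all of these names. Replicate 20, where miR-940 and miR-375 were highest, was the dimmest array before scaling. It was also the high array for more names than any other, 121 of the 590 human names (20.5%) that were detected on at least 1 array and rose above the floor.

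**Figure D3:**
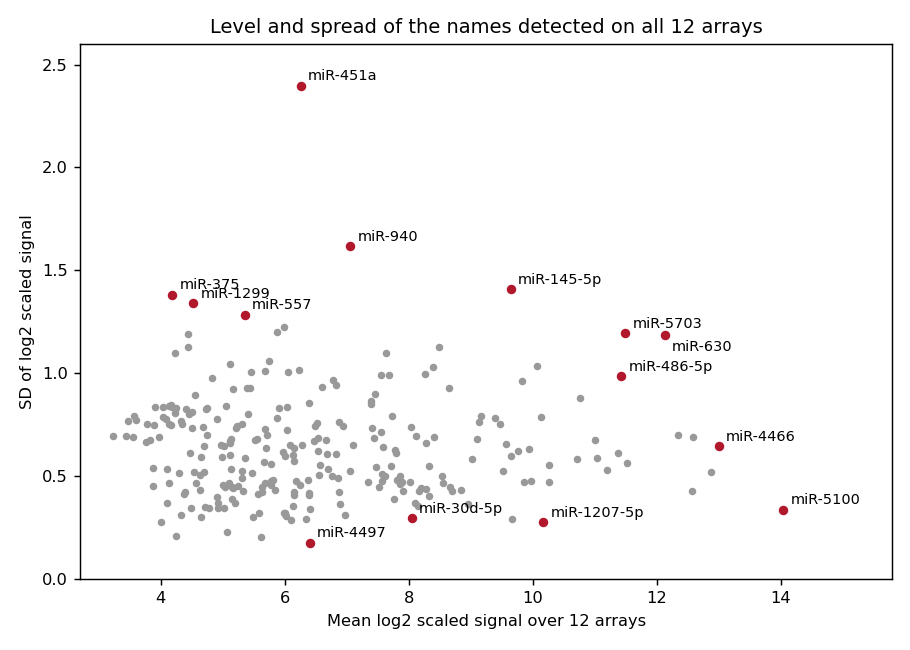
SD over 12 arrays of the log2 scaled signal (vertical axis) against its mean (horizontal axis) for the 262 human names detected on all healthy arrays, with named examples in red. miR-451a lies highest at an SD of 2.40 and miR-4497 lowest at 0.18, and miR-5100 at a level of 14.04 has an SD of 0.34.

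miR-630 and miR-5703 moved as a pair, which was singled out after their values were seen. miR-630, studied mostly in human tumour cells, had a lowest level of 9.83 on replicate 20, a median of 12.21 and a highest of 13.80 on replicate 23. miR-5703 was lowest and highest on the same arrays, at 9.28 and 13.22, with a median of 11.46. Their SDs were 1.18 and 1.19, yet the level of miR-630 minus that of miR-5703 stayed between 0.55 and 0.76 on all 12 arrays, with an SD of 0.068. The name next nearest to miR-630, miR-3679-5p, had an SD of the difference of 0.75. On slide 1 replicates 22, 23 and 25 had miR-630 at 13.48, 13.80 and 13.49, while replicate 26 had it at 11.16, so the high arrays shared a slide but not all of that slide was high.

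No name passed the test between slides. None of the 421 names detected on at least 6 arrays differed between the 3 slides at an adjusted p of 0.05 (0%; limma moderated F-test, Benjamini-Hochberg adjustment, lowest adjusted p 0.778), and 18 had an unadjusted p under 0.05. The smallest unadjusted p was that of miR-4443, with mean levels of 11.91, 12.58 and 13.24 on slides 1, 2 and 3 (limma adjusted p = 0.778). The median SD of the 421 names was 0.60 over the 12 arrays and 0.59 within slides. The levels were scaled per array, so slide differences in brightness were not part of this test. Names detected ran from 302 to 448 on slide 1, 312 to 457 on slide 2 and 409 to 557 on slide 3. Without scaling no name passed either (limma, lowest adjusted p 0.359). On simulated data of this size, 98.2% of names shifted by 3 on the log2 scale on 1 slide were recovered. In that simulation 140 of the 421 names were shifted, and noise was normal and independent between names. Smaller slide differences, such as that of miR-4443, were not simulated, so the recovery does not bear on them.

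**Figure D4:**
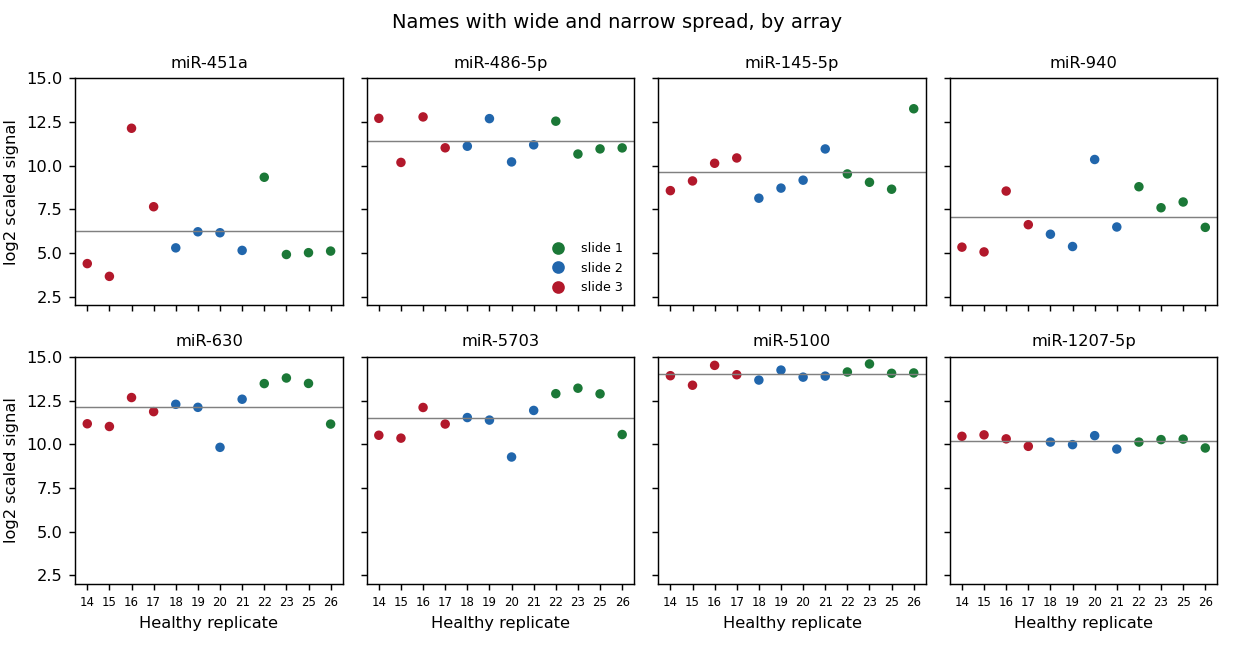
Log2 scaled signal (vertical axis) of 8 names on each healthy array (horizontal axis, replicate number), coloured by slide with a line at the mean. miR-451a reaches 12.15 on replicate 16, miR-145-5p 13.26 on replicate 26 and miR-940 10.36 on replicate 20, while miR-630 and miR-5703 follow the same course and miR-1207-5p stays near 10.17.

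Among the 8 lists of candidate sources, the red cell list had the highest median share. Of 12 names on the red cell list, 6 were detected on all arrays (13.9% of all human names were) and 3 on none (67% of all were). Their summed share ran from 1.09% on replicate 15 to 9.38% on replicate 16, with a median of 2.95%. Replicates 14, 19 and 22 were also high at 7.11%, 7.88% and 7.53%, and the other arrays lay at or under 3.75%. miR-486-5p had levels of 12.71, 12.79, 12.70 and 12.55 on replicates 14, 16, 19 and 22, and between 10.19 and 11.19 elsewhere. It held 5.48%, 4.19%, 5.77% and 4.36% of the signal on these 4 arrays, a large part of the list's share. Its high levels there thus follow largely from how the arrays were picked.

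miR-25-3p and miR-92a-3p are also on the list whose sum picked out these 4 arrays. miR-25-3p had its 4 highest levels there, at 9.54, 9.97, 9.18 and 10.15 on replicates 14, 16, 19 and 22. Its next highest was 9.06 on replicate 17. miR-92a-3p was at 10.12, 11.36, 10.45 and 11.06 on the same 4 arrays, above its median of 9.82, and at 10.25 on replicate 21. miR-451a did not follow on every one of these arrays. On replicate 14 it was at 4.39, below its median of 5.22 and its second lowest value, and on replicate 19 at 6.21, above that median. miR-144-3p, made from the same primary transcript as miR-451a, was highest on replicate 19 at 8.0, with 7.48 on replicate 22 and 6.64 on replicate 16. On replicate 14 miR-144-3p was at 5.71, below its median of 5.99. Also on the list, miR-106b-5p was at 8.04, 7.02 and 7.81 on replicates 16, 19 and 22. On replicate 14 it was at 5.79, near its median of 5.78. miR-16-5p, usually among the abundant blood cell miRNAs, was detected on replicates 16 and 22 alone, at 7.42 and 4.31. The difference of miR-451a from miR-23a-3p, a ratio often used to grade red cell lysis, ran from -2.74 to 3.22 in log2 units. Whether these values reflect lysis in the tube was not tested.

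Replicate 16 stood apart in the lists of sources, families and clusters, a count made after its values were seen. The 16 lists other than the GC-rich and fragment lists had 72 members that were detected on at least 1 array and rose above the floor. Of these, 35 (48.6%) had their highest level on replicate 16, against 82 of 590 (13.9%) among all such human names. Of the 14 among them that were detected on a single array, 12 were detected on replicate 16. These 12 are among the 35 and entered the count only through replicate 16. Their highest level there was thus largely given in advance. Over all human names above the floor, 15 of the 46 detected on a single array were on replicate 16, and 16 on replicate 15. let-7a-5p, miR-126-3p of endothelium and platelets, miR-146a-5p of leukocytes and miR-17-5p were among those detected on replicate 16 alone. The source of this signal was not tested. Replicate 16 had a 75th percentile of 158 and 409 detected names, against medians of 239 and 415.5 over the 12 arrays.

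The platelet and leukocyte lists carried little signal. On the platelet list 2 of 10 names were detected on all arrays and 5 on at least 6, against 13.9% and 22.3% of all human names, and the summed share had a median of 0.254% and a range from 0.0836% to 0.520%. miR-21-5p, found in many cell types, led it at 7.40 ± 0.74 (SD, n = 12), followed by miR-151a-3p at 5.91 ± 0.83. miR-223-3p was detected on 11 arrays and had a median level of 3.50, with 6.70 on replicate 16. On the leukocyte list 2 of 11 names were detected on all arrays and 4 on at least 6, with a median share of 0.139%. miR-181a-5p, a regulator of T cell development, led at 6.94 ± 0.74, and miR-150-5p of lymphocytes was detected on no array.

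Organ-enriched names carried less signal still, with median list shares of 0.00194% for liver, 0.0130% for brain, 0.0265% for epithelium and 0% for muscle and heart. On the liver list 0 of 7 names and on the muscle and heart list 0 of 8 were detected on all arrays, counts that lists this short cannot set apart from the 13.9% of all human names. miR-122-5p was detected on 6 arrays and was highest on replicate 20 at 5.50. Over all human names above the floor, 20.5% were highest on that array. The heart myosin gene miRNAs miR-208b and miR-499a-5p were not well above background on any array, nor were the muscle miRNAs miR-133a and miR-1. A further member, miR-133b, was detected on 4, highest on replicate 26 at 4.97. On the brain list 0 of 7 names were on all arrays, with miR-124-3p on 9. On the epithelium list 1 of 8 names, miR-205-5p, was detected on all arrays at 4.97 ± 0.65, and the other 7 on none (67% of all human names were on none).

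On the vessel wall list 1 of 7 names, miR-145-5p, was detected on all arrays (13.9% of all human names were). The list's share had a median of 0.453% and reached 7.40% on replicate 26, nearly all of it miR-145-5p. On that array miR-222-3p was at 4.48, its highest value, and miR-221-3p at 3.45, near its median of 3.33. miR-143-3p, made from the same cluster as miR-145-5p, was detected on no array. The mean share of the list was 1.19% with replicate 26 and 0.626% without it.

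Broadly expressed families were unequal. For scale, 13.9% of all human names were detected on all arrays and 67% on none. All 5 members of the miR-320 family, which is made without the usual first processing cut, were detected on all arrays. They were led by miR-320c at 9.56 ± 0.66, and their summed share had a median of 1.21%. Of the miR-30 family, miR-30e-5p, miR-30d-5p and miR-30a-5p were on all arrays at 8.56 ± 0.46, 8.04 ± 0.29 and 7.58 ± 0.64, and the other 2 members on none. Of the miR-29 family, known for targeting collagen messages, miR-29a-3p and miR-29c-3p were on all arrays at 7.63 ± 1.10 and 7.39 ± 0.85. The let-7 family carried little signal, with a median share of 0.00929%. Of its 9 names, 0 were on all arrays and 2 on at least 6, against 13.9% and 22.3% of all human names. A list this short cannot set such counts apart from those rates. let-7b-5p was on 8 arrays. The mean share of the family was 0.0197%, and 0.0112% without replicate 16.

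Among clustered miRNAs, miR-92a-3p, miR-25-3p and miR-106b-5p were the members of the miR-17 clusters detected on all arrays, 3 of 12. Their relatives miR-17-5p, miR-20a-5p and miR-93-5p were detected on 1 array. Of the 5 miR-23, miR-27 and miR-24 names, miR-23a-3p was on all arrays at 6.83 ± 0.94, and miR-24-3p was on 11. Of 31 names of the imprinted DLK1-DIO3 cluster, miR-494, miR-370 and miR-134 were on all arrays (9.7%) and 26 on none. Of 33 names of a cluster known from primates alone, miR-498 and miR-526b-5p were on all arrays (6.1%), at 6.39 ± 0.86 and 4.14 ± 0.47, and 24 on none. Over all human names, 13.9% were on all arrays and 67% on none.

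The GC-rich list, chosen with these bright names known, had the largest share of any list. It has 29 names on the array, of which 25 were detected on all arrays (13.9% of all human names were). The list's summed share ran from 21.5% on replicate 19 to 47.0% on replicate 15 with a median of 31.0%. Membership rests on the names, and base composition was not checked. The list of names resembling fragments of other small RNAs had 8 of 10 names on all arrays, against the same 13.9%. This list's share ran from 2.19% to 10.4%, with a median of 5.50%. It was led by miR-4454 and miR-720_v18.0, both like transfer RNA fragments, while miR-1246, like a fragment of a spliceosomal RNA, was at 5.52 ± 0.67. Replicate 15 was lowest for the fragment list and highest for the GC-rich list. Of the 38 names of these lists together, 15 (39.5%) had their highest level on it, against 69 of 590 (11.7%) among all human names that rose above the floor. These 15 were all GC-rich names, and the fragment names had their highest levels on other arrays. Replicate 15 was picked by the summed share of the GC-rich list, so this count was largely given in advance.

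**Figure D5:**
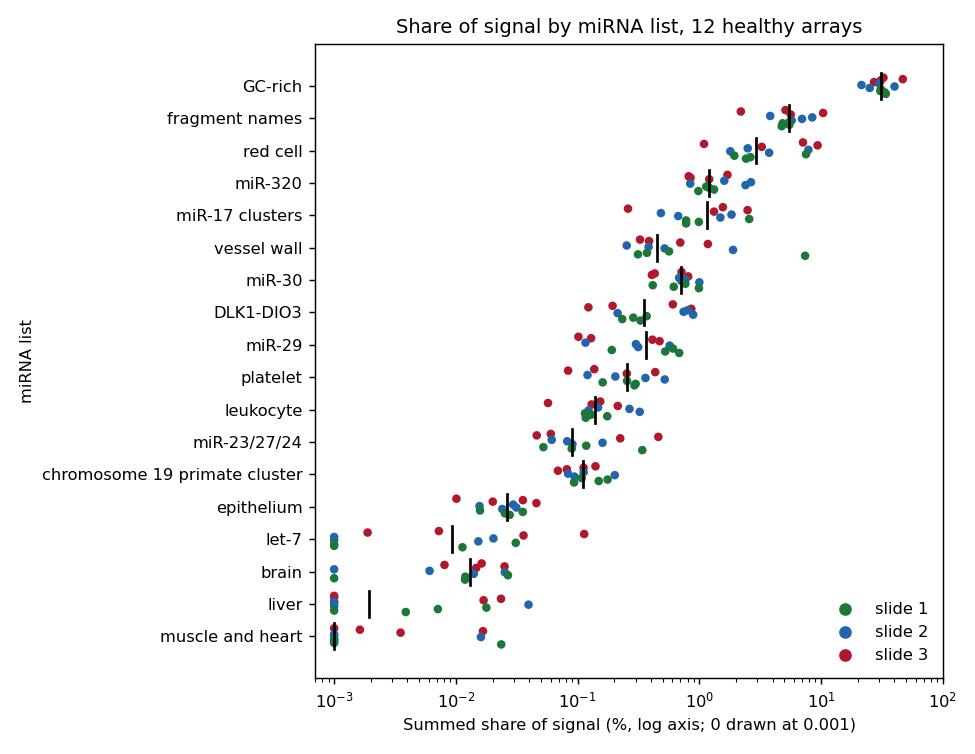
Summed share of the signal of detected human names (horizontal log axis, percent) for 18 miRNA lists, with 1 point per healthy array coloured by slide, a bar at the median, and arrays with no detected member drawn at 0.001. The GC-rich list lies between 21.5% and 47.0%, the red cell list between 1.09% and 9.38%, and the muscle and heart list at or under 0.0236%.

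Both arms of a precursor were detected together about as often as the rates of the single arms give. Of 483 precursors with a 5p and a 3p name on the array, 8 had both detected on all arrays, 58 had the 5p name alone on all, and 47 the 3p name alone. The 3p name was thus on all arrays for 12.1% of the 66 precursors whose 5p name was, and for 11.4% of all 483. Among the 8, the 5p name was higher on all 12 arrays for 6, and the 3p name for miR-4433. The probes of the arms differ in sequence, so these orders are of signal.

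Probes for miRNAs of human viruses were also detected. Of 139 viral names, 20 (14.4%) were detected on all 12 arrays and 88 (63.3%) on none, against 13.9% and 67% of human names. The viral names detected on all arrays had a median level of 6.09 and the human ones 6.04, while the highest were 12.35 and 14.04. Detection on every array by this call was thus about as frequent among names of human viruses as among human names. What the viral probes bound was not tested.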

How the data were processed

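Serum miRNA was measured on 1-colour Agilent arrays, and 12 healthy arrays were used. Per the file headers and the submitters' processing notes, the deposited scanner files give spot intensity from Agilent Feature Extraction 10.7.3.1, background-subtracted and not normalized between arrays, and other columns hold flags of 0 or 1. The authors' deposited table of log2 values has an unstated normalization and was used as an alternative. Its values correlated with the log2 scanner signal per array at 0.994 to 0.9998 over intensities above 8.

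Control spots and outlier spots (1.72% to 3.91% of human spots) were dropped before averaging the processed signal over the 7 to 30 spots of a probe. No spot was saturated. Because 17.7% of probe values were detected, arrays were scaled to their 75th percentile over the 492 human probes detected on all 12 arrays, then floored at 4.86, the 5th percentile of scaled detected signals, and log2 transformed. Precision is limited by the number of arrays.

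Slides were compared with limma 3.58.1 in R 4.3.3, which was tested on simulated data. Correlations over arrays used permutation with 100000 resamples in scipy 1.17.1. Other values came from pandas 2.3.3 and numpy 2.4.6 under Python 3.11.15, and figures from matplotlib 3.10.9. The labels describe each array as the serum of 1 cat.

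Named were the 20 brightest, 10 most and 10 least variable of the names detected on all arrays, up to 4 bright members of each of 18 lists, and a panel. List names were matched without the version suffix that 3 names carry. The members and lists were chosen with earlier results of these data known. Alternatives were other detection calls, scalings, floors, background corrections, probes and left-out arrays.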

Additional observations from a re-analysis of the deposited data

How the results depend on the processing

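The number of names detected per array was 416 and stayed between 388 and 490 under 4 alternatives, but was 680.75 with the scanner's looser call of signal above background. The number detected on all arrays was 262, between 244 and 336 under 16 alternatives, and 458 with that looser call. The share of the 10 brightest names was 53.3%, between 51.2% and 53.8% under 17 alternatives, and 45.4% with normexp background correction. The median SD between arrays was 0.60, between 0.507 and 0.621 under 22 alternatives, and 0.910 with no scaling. No name differed between slides under any of 23 alternatives (limma). The relation of array brightness with the share of GC-rich and fragment names changed sign with the total gene signal (r = 0.0317, permutation p adjusted 0.92). Normexp used the median spot signal, since the mean spot signal was not used here. With the next brightest probe, 12 of 31 names were counted as moved in rank. Not all of these moves went beyond the range of ranks over arrays. miR-4466 went from 2 to 6 and miR-4507 from 11 to 16, while their ranks over arrays ran from 1 to 9 and from 7 to 20. No array met the planned limit for dimness, so leaving out dim arrays by that limit was not run. Leaving out the 3 arrays with the fewest names, the array in which a name or list was highest, and centring the slides were chosen after seeing the data. No paired analysis was possible because 1 group was described and its replicate numbers are not shared with the other group. Dim arrays limit which names can be called undetected.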
